A study of Rattus norvegicus with 8 samples.

Results

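The translation initiation factors are the proteins that load the small ribosomal subunit onto a messenger RNA and bring it to the start codon. Their genes were taken here as the protein-coding rows of the deposited count table whose symbols begin with Eif and a digit from 1 to 6, leaving out the Eif2ak genes, which encode kinases. This gave 51 genes of 22227 protein-coding rows and 40994 rows in all. Transcripts were counted in H9c2 cells, a single line of myoblasts derived from rat heart with no genetic modification. The groups compared were cells given 100 µg/ml OxPAPC in DMEM medium for 6 h (libraries 2, 9, 16 and 23, n = 4) and cells given vehicle (libraries 1, 8, 15 and 22, n = 4). All cells were at passage 6, grown in the same serum-containing high-glucose medium, and carried a single batch label. OxPAPC is what forms when palmitoyl-arachidonoyl-phosphatidylcholine, a phospholipid of membranes, is oxidized, and holds many products. The labels do not say that the libraries came from separate cultures, so p-values reflect only how far these libraries spread, which may be technical in part.

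Initiation begins when eIF2, bound to GTP, carries the initiator tRNA to the small subunit together with eIF1, eIF1A, eIF3 and eIF5. The eIF4 proteins recognise the cap of the messenger RNA and unwind its leader, and eIF5B joins the large subunit once the start codon is found. The exchange factor eIF2B recharges eIF2 with GTP, and phosphorylation of eIF2 alpha by stress-activated kinases blocks that exchange, whereas binding proteins controlled by mTORC1 sequester the cap-binding protein eIF4E.

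Libraries held 15.4 to 21.7 M counts and 17838 to 18556 genes with at least 1 count. Myoblast and skeletal muscle markers had a count for 11 of 11 genes. Their sum was 3569 to 3756 CPM (counts scaled to a common library size) in OxPAPC libraries, against 3601 to 3700 CPM in vehicle libraries. Vim made up most of that sum, with 3270 CPM in OxPAPC cells and 3185 CPM in vehicle cells. Myf6 had 37 counts over all 8 libraries, Pax7 2 and Myf5 1, and none of these was tested. Within that list Myog, a late myogenic regulator, fell, with 40.0 ± 1.46 CPM in OxPAPC cells and 95.1 ± 5.67 CPM in vehicle cells (SD, n = 4 each), while Mymk also fell and Myod1 rose. Cardiomyocyte markers summed to 149 to 157 CPM in OxPAPC libraries, against 155 to 175 CPM in vehicle libraries. Most of that sum was Tnnt2, a thin-filament gene that fell (113 ± 2.99 CPM in OxPAPC cells and 128 ± 7.28 CPM in vehicle cells; log2 fold change -0.18, edgeR adjusted p = 0.00165), and Actc1, which did not pass, with 28.5 CPM in OxPAPC cells and 27.4 CPM in vehicle cells. Gata4, a cardiac transcription factor, had 1317 counts over all 8 libraries and Nkx2-5 had 94. Tnni3 had 33 counts, Myh7 6, Nppa 7, and Myh6, Ryr2 and Nppb 3 each. The summed fibroblast markers were high in both groups, with 87031 to 91914 CPM in OxPAPC libraries, against 89914 to 94326 CPM in vehicle libraries. Col1a1, Col1a2 and Col3a1 made up nearly all of it, and Pdgfra, with 68 counts over all 8 libraries, was not tested. Of that list Col1a2 and Thy1 fell, by 0.07 and 0.08 on the log2 scale (edgeR adjusted p = 0.0029 and 0.0408), and 5 of 7 tested genes did not pass. Endothelial markers reached at most 1.65 CPM in OxPAPC libraries, against 1.64 CPM in vehicle libraries, with Kdr and Cdh5 at 0. Leukocyte markers reached at most 2.21 CPM in OxPAPC libraries, against 1.69 CPM in vehicle libraries, with Ptprc and Adgre1 at 0. In bulk RNA, fewer cells of a kind and less RNA per cell cannot be told apart, and the part that these marker shifts have in the values of the initiation factors was not tested.

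Of the 51 genes, 48 had counts, and all of those 48 passed the filter on low counts. The other 3 rows were at 0 in all 8 libraries: Eif4e1b, a germline relative of the cap-binding protein, Eif2s3y, the Y-linked copy of eIF2 gamma, and the row named Eif3e. With 3 counts over a group as the floor, each of them lay below 0.0428 CPM in OxPAPC cells and 0.0409 CPM in vehicle cells. RefSeq names that Eif3e row a pseudogene, Eif3e-ps1, and gives the symbol Eif3e to the row called Eif3el1 in the files, which was expressed.

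Most initiation factor genes moved little, and among those that changed after OxPAPC most rose. In edgeR's quasi-likelihood test with Benjamini-Hochberg adjustment over 13206 genes, 18 of the 48 rose, 2 fell and 28 did not pass an adjusted p of 0.05. Of the initiation factors 41.67% passed, 37.5% rising and 4.167% falling, against 34.3% of all tested genes, 17.9% rising and 16.4% falling. Of tested protein-coding genes 35.9% passed, 18.6% rising and 17.3% falling. In a band from 56.5 to 199.5 CPM, the interquartile range of the members' own levels and chosen after those were seen, 49.2% of 2745 genes passed, 31.7% rising and 17.5% falling. The split between rises and falls depended on scaling: with upper-quartile factors 13 members rose and 5 fell, 72.2% rising, against 90% in the fit above, while the rising share of all called genes was 40.2% against 52.3%.

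The changes were small. The median log2 fold change of the 48 genes was 0.07, against 0.0022 for all tested genes, and 35 of the 48 were positive. The median size of the change, without regard to sign, was 0.10 for the initiation factors and 0.15 for all tested genes. Among genes that passed, it was 0.16 for the initiation factors and 0.28 for all. Values lay between -0.21 and 0.53. In 18 of the 48 all OxPAPC libraries were above all vehicle libraries and in 3 they were below, against 16.8% and 15.6% of all tested genes, 32.4% together. Together the 51 rows took 0.866 to 0.881% of the counts in OxPAPC libraries, against 0.826 to 0.844% in vehicle libraries, with no overlap.

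**Figure D1:**
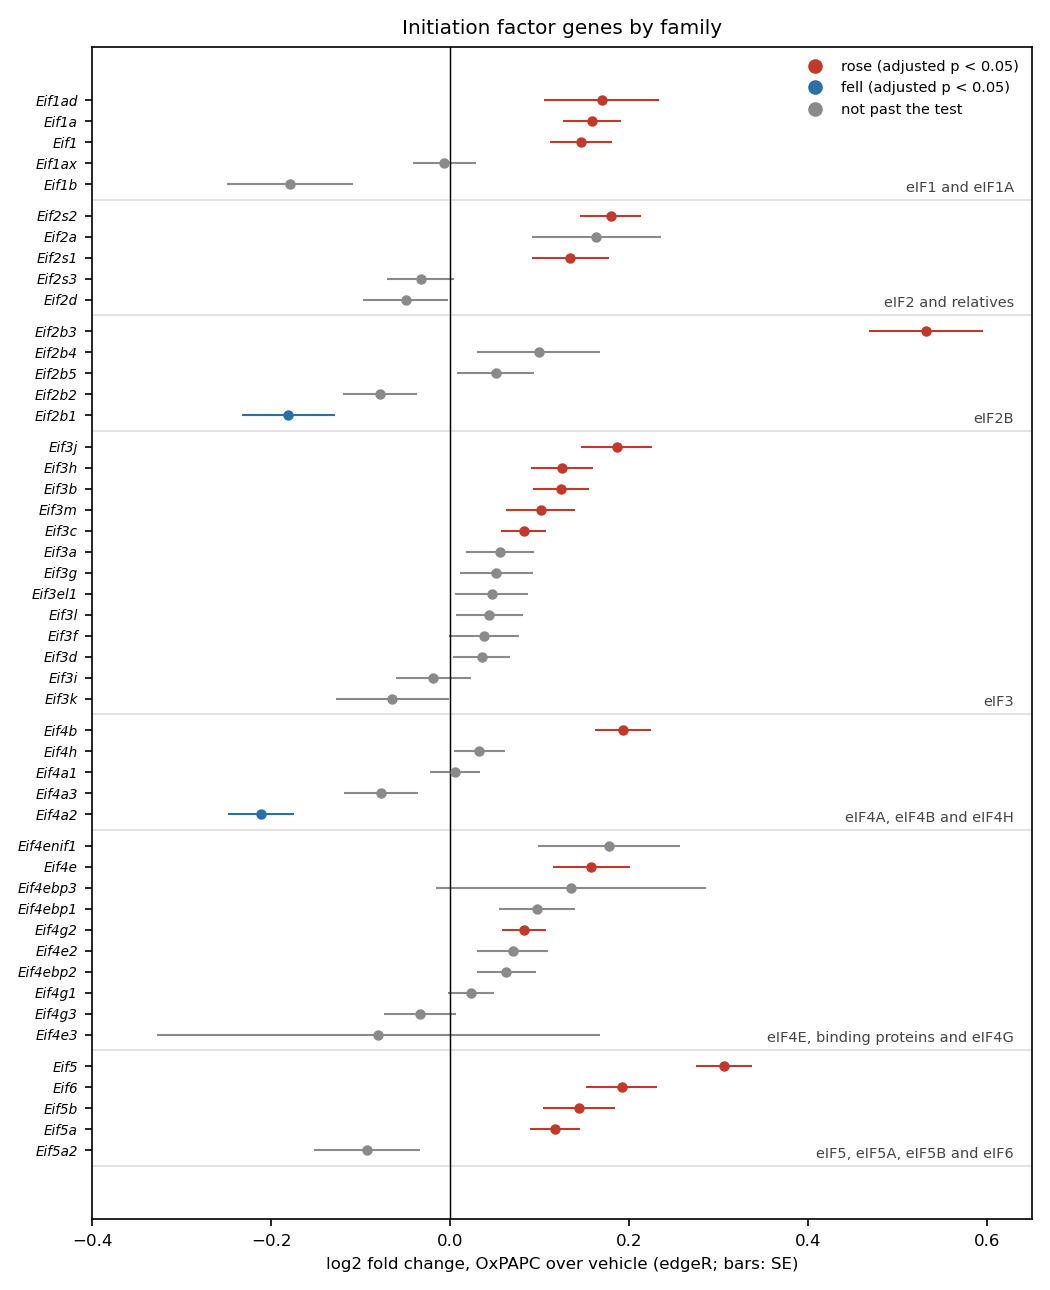
Log2 fold change of each tested initiation factor gene, OxPAPC over vehicle, on the horizontal axis, with bars for the standard error and genes grouped by family down the page. The 18 genes that rose are red, the 2 that fell are blue and the 28 not past the test are grey; Eif2b3 at 0.53 and Eif5 at 0.31 stand farthest to the right.

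**Figure D2:**
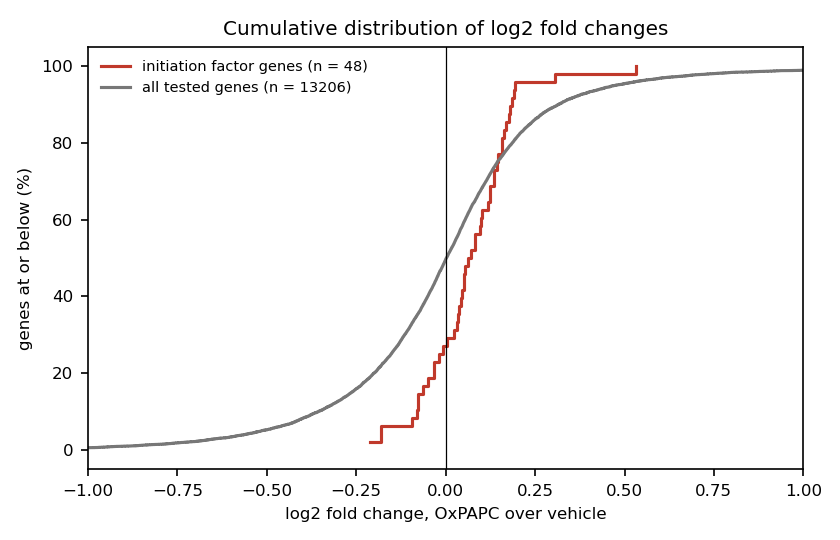
Cumulative share of genes, in percent, at or below each log2 fold change for the 48 initiation factor genes and for all 13206 tested genes; the horizontal axis is limited to values from -1 to 1. The curve of the initiation factors is steeper and crosses its midpoint at 0.07, against 0.0022 for all tested genes.

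The exchange factor eIF2B held the gene that rose most, Eif2b3, which encodes its gamma subunit. This gene lies on chromosome 5 from 130492167 to 130558692, plus strand, in the coordinates of the deposited table, with no build stated in the files or labels. Its level was 41.6, 41.5, 34.8 and 38.9 CPM in OxPAPC libraries 2, 9, 16 and 23, against 26.2, 25.7, 28.5 and 28.3 CPM in vehicle libraries 1, 8, 15 and 22. Every OxPAPC library was above every vehicle library, with OxPAPC 16 the lowest of its group. The means were 39.2 ± 3.18 CPM in OxPAPC cells and 27.1 ± 1.43 CPM in vehicle cells (SD, n = 4 each), 44.5% higher with OxPAPC (log2 fold change 0.53 ± 0.06 SE, edgeR adjusted p = 6.98e-07). Eif2b1, the alpha subunit, one of those that sense phosphorylated eIF2, went the other way. It had 40.0, 45.7, 43.3 and 45.9 CPM in the OxPAPC libraries, against 49.0, 50.9, 47.7 and 50.9 CPM in the vehicle libraries, again with no overlap between the groups. The fitted log2 fold change was -0.18 ± 0.05 (by edgeR, adjusted p = 0.00973). The other subunit genes did not pass the test: Eif2b2 (beta) had -0.08, Eif2b4 (delta) 0.10 and Eif2b5 (epsilon, the catalytic subunit) 0.05. Eif2b2 passed, as a fall, in 3 of 19 alternatives, upper-quartile scaling and the FPKM fits with the same filter.

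The share of each subunit within the complex can be set out in FPKM, the deposited length-scaled unit, as a description. Eif2b3 made up 17.4 ± 1.36% of the summed FPKM of the eIF2B subunit genes in OxPAPC libraries, against 12.2 ± 0.399% in vehicle libraries (SD, n = 4 each). Its range was 15.6 to 18.6% in OxPAPC libraries, against 11.8 to 12.6% in vehicle libraries. Eif2b1 made up 21.7 ± 1.16% in OxPAPC libraries, against 25.1 ± 1.17% in vehicle libraries. Eif2b2 was the most abundant subunit transcript in both groups, with 36.6% in OxPAPC libraries, against 39.2% in vehicle libraries.

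The promoter windows of Eif2b3 and Eif5 are shown because these are the members with the largest rises. RefSeq windows of assembly GRCr8 run from 250 bases before to 50 bases after the gene start. Each was searched on both strands for TGATGNAA, the core of the response element of ATF4 with C/EBP partners, for the E-box CACGTG, which MYC family and other factors bind, and for TGACNNNGC, the core of the antioxidant response element. Neither window held any of the motifs, so both are in lower case throughout. Positions are chr5:135728592-135728891, plus strand, and chr6:136410083-136410382, plus strand.
Eif2b3: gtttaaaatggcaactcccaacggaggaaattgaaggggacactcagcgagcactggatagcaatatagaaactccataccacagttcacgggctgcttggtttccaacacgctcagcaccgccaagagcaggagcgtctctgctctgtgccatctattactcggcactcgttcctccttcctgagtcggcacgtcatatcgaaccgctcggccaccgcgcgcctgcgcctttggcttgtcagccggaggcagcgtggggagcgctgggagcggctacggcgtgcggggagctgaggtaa
Eif5: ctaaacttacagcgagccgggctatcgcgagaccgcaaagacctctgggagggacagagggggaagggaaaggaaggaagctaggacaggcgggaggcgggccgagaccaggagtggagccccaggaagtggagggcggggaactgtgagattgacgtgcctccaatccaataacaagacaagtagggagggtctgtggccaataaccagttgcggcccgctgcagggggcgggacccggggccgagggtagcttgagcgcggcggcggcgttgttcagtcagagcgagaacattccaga

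Eif5, which encodes the factor that makes eIF2 hydrolyse GTP at the start codon, had the other large rise. It lies on chromosome 6 from 130589200 to 130597656, plus strand. Its level was 299, 310.4, 298 and 317 CPM in the OxPAPC libraries, against 244, 254, 241 and 252 CPM in the vehicle libraries. The groups were well apart, the lowest OxPAPC library standing above the highest vehicle library. The means were 306 ± 9.14 CPM in OxPAPC cells and 248 ± 6.32 CPM in vehicle cells (SD, n = 4 each), 23.6% higher with OxPAPC (log2 fold change 0.31 ± 0.03, edgeR adjusted p = 7.01e-08). A pair of Eif5 pseudogenes is counted separately. RGD1562281, with 421 counts in all, had 0.66 ± 0.21 as log2 fold change (edgeR adjusted p = 0.0196), and LOC681396, with 1192 counts, had 0.25 ± 0.12 (adjusted p = 0.12). Both are small beside the 39642 counts of Eif5, and reads that fit more than one of these rows may have been split between them.

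Of the 5 genes for eIF5, eIF5A, eIF5B and eIF6, 4 rose, with a family median log2 fold change of 0.14. In this small family 80% rose, against 17.9% of all tested genes and 31.7% of those from 56.5 to 199.5 CPM. Eif5 and Eif5a lie above that band and Eif5a2 below it, so it does not match the family in level. Eif6, which keeps the large subunit from joining too early, had 105 ± 5.01 CPM in OxPAPC cells and 91.6 ± 1.28 CPM in vehicle cells (SD, n = 4 each; log2 fold change 0.19 ± 0.04, edgeR adjusted p = 0.00057). Eif5b, the GTPase of subunit joining, rose by 0.14 ± 0.04 (edgeR adjusted p = 0.00793). Its pseudogene Eif5b-ps1, counted apart, had 4444 counts in all, against 12702 for Eif5b. The pseudogene did not pass, at 0.0071 ± 0.084 (edgeR adjusted p = 0.961), and reads shared by these rows are uncertain. Eif5a, which carries the modified lysine hypusine and helps the ribosome through difficult peptide bonds, was the most abundant initiation factor transcript by FPKM. In counts not scaled by length, its level was 484, 469.9, 481 and 498 CPM in the OxPAPC libraries, against 458, 442, 442 and 440.0 CPM in the vehicle libraries. The groups did not overlap, although vehicle 1 stood apart from the other vehicle libraries. It rose by 0.12 ± 0.03 on the log2 scale (edgeR adjusted p = 0.00212). The gene spans chromosome 10 from 54640104 to 54644845, minus strand, and shares 439 bases with Gps2 on the opposite strand. Gps2 had 2221 counts in all, against 66469 for Eif5a, and fell by 0.26 ± 0.09 on that scale (edgeR adjusted p = 0.0206). Eif5a2, the much scarcer paralogue of Eif5a, did not pass, at -0.09.

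Within eIF2, the beta and alpha subunit genes rose and the gamma subunit gene did not pass the test. Eif2s2 (beta) had 208 ± 7.94 CPM in OxPAPC cells and 184 ± 4.39 CPM in vehicle cells (SD, n = 4 each; log2 fold change 0.18 ± 0.03, edgeR adjusted p = 0.000241). Eif2s1 (alpha, the subunit that stress kinases phosphorylate) had 109 ± 7.42 CPM in OxPAPC cells and 99.3 ± 1.97 CPM in vehicle cells (log2 fold change 0.13 ± 0.04, edgeR adjusted p = 0.0197). That call was lost in 7 of 19 alternative analyses, among them those without OxPAPC 2, without OxPAPC 9 or without vehicle 15, with adjusted p up to 0.186. Eif2s3 (gamma, which binds GTP and the initiator tRNA) had a log2 fold change of -0.03. By FPKM, Eif2s3 made up 14.2 ± 0.307% of the summed eIF2 subunit transcripts in OxPAPC libraries, against 15.9 ± 0.506% in vehicle libraries. Eif2a and Eif2d encode separate factors that can deliver initiator tRNA without eIF2. Neither passed the test, at 0.16 (edgeR adjusted p = 0.087) and -0.05, although Eif2a passed without vehicle 15.

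Of the members with a RefSeq window, 2 of 45 held TGATGNAA, 4.44%, against 4.16% of 27457 genes. The first was Eif2s2, printed here with the match in capitals, which starts 36 bases before the gene start. The other was Eif3g, which did not pass the test. The window is chr3:163855521-163855820, minus strand.
Eif2s2: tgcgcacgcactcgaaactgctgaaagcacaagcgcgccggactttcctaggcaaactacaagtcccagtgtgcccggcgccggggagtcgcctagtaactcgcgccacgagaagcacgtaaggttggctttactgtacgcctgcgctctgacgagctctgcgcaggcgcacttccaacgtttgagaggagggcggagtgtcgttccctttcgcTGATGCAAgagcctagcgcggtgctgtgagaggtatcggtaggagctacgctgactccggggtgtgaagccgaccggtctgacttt

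Among the genes for eIF1 and eIF1A, which bind near the decoding site and set how strictly the start codon is read, 3 of 5 rose. The share was 60% in this small family, against 17.9% of all tested genes and 31.7% of those from 56.5 to 199.5 CPM. Eif1 lies above that band and Eif1ad and Eif1b below it. Eif1 rose by 0.15 ± 0.03 on the log2 scale (edgeR adjusted p = 0.00207), with 223 ± 9.61 CPM in OxPAPC cells and 202 ± 4.81 CPM in vehicle cells (SD, n = 4 each). Eif1a, one of the rat eIF1A genes, rose by 0.16 ± 0.03 (edgeR adjusted p = 0.000542), and its X-linked paralogue Eif1ax did not pass, at -0.01. Eif1ad, whose product shares a domain with eIF1A, was barely past the test (log2 fold change 0.17 ± 0.06, edgeR adjusted p = 0.045). Its groups overlapped, and the call was lost in 15 of 19 alternatives, among them those without any 1 of OxPAPC 9, 16 or 23 or vehicle 1, 15 or 22. Eif1b, the close paralogue of Eif1, narrowly missed the test in the other direction (log2 fold change -0.18 ± 0.07, edgeR adjusted p = 0.0522) and was past it, as a fall, in 11 of 19 alternatives, among them those without OxPAPC 2 or vehicle 15.

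The Eif1 window, chr10:85746887-85747186, plus strand, is shown for the antioxidant core TGACNNNGC, which starts 138 bases before the gene start and is in capitals. This motif was in 7 of 45 members, 15.6%, against 13.1% of the 27457 genes with a window. It stood in 3 of 16 members that rose and in 4 of 25 not past the test.
Eif1: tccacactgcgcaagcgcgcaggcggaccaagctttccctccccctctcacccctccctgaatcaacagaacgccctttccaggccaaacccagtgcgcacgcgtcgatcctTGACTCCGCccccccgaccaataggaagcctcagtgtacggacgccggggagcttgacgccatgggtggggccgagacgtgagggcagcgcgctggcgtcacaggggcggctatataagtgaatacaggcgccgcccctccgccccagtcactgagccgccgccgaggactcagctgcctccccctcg

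The eIF3 complex, the large scaffold that ties the small subunit to the eIF4 proteins, had 13 tested genes, of which 5 rose and 8 did not pass the test. The median was 0.05. The rising share was 38.5%, against 17.9% of all tested genes and 31.7% of those from 56.5 to 199.5 CPM. Eif3a, Eif3b and Eif3c lie above that band and Eif3k below it. Eif3j, the loosely bound subunit at the decoding centre, had the largest rise of them, 0.19 ± 0.04 (edgeR adjusted p = 0.000826), with 93.5 ± 3.47 CPM in OxPAPC cells and 82.2 ± 2.25 CPM in vehicle cells (SD, n = 4 each). Eif3b and Eif3c belong to the core shared with yeast, and Eif3h and Eif3m to the outer subunits that budding yeast lacks. Eif3b rose by 0.12 ± 0.03 (edgeR adjusted p = 0.00375) and Eif3h by 0.12 ± 0.03 (adjusted p = 0.0071). Eif3c rose by 0.08 ± 0.03 (edgeR adjusted p = 0.0137), and this call was lost in 4 of 19 alternatives, including upper-quartile scaling. Eif3m rose by 0.10 ± 0.04 (edgeR adjusted p = 0.0467), a call lost in 15 of 19 alternatives, among them those without any 1 of OxPAPC 2, 9 or 16 or vehicle 8 or 22. Of the core subunits a, b, c, g and i, 2 of 5 rose, 40%, and of the remaining tested rows 3 of 8, 37.5%. The 8 genes not past the test (Eif3a, Eif3d, Eif3el1, Eif3f, Eif3g, Eif3i, Eif3k and Eif3l) lay between -0.06 and 0.06, and Eif3a passed without OxPAPC 23. Eif3k shares 4392 bases with a long noncoding RNA on the opposite strand, which had 453 counts, against 5420 for Eif3k.

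The helicase genes of the cap complex parted. Eif4a1 and Eif4a2 encode near-identical forms of eIF4A, the helicase that unwinds leaders, and Eif4a1 was the second most abundant member by FPKM. Eif4a1 (chromosome 10 from 54384345 to 54389853, minus strand) had 537, 519, 519 and 524 CPM in the OxPAPC libraries, against 527, 515, 506 and 544 CPM in the vehicle libraries. These groups overlapped completely (log2 fold change 0.01 ± 0.03, edgeR adjusted p = 0.912). Eif4a2 (chromosome 11 from 77764126 to 77770810, minus strand) had 187, 191, 193 and 204 CPM in the OxPAPC libraries, against 209.8, 226, 232 and 230.1 CPM in the vehicle libraries. Every OxPAPC library was below every vehicle library, and the closest pair were OxPAPC 23 and vehicle 1. Eif4a2 averaged 194 ± 7.02 CPM in OxPAPC cells and 224 ± 10.2 CPM in vehicle cells (SD, n = 4 each) and fell by 13.6% (log2 fold change -0.21 ± 0.04, edgeR adjusted p = 8.49e-05). Small nucleolar RNA genes lie within both genes on the same strand and had at most 71 counts each.

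The balance of the helicases was therefore set within each library, where scaling plays no part. The ratio of Eif4a1 to Eif4a2 counts was 2.87, 2.72, 2.69 and 2.57 in the OxPAPC libraries, against 2.51, 2.28, 2.18 and 2.36 in the vehicle libraries. Its log2 averaged 1.44 ± 0.06 in OxPAPC cells and 1.22 ± 0.09 in vehicle cells (SD, n = 4 each), a difference of 0.22. The exact two-sided permutation test over 70 splits gave p = 0.0286, the smallest this design allows, and 0.0381 after adjustment over the 4 ratios tested. With any 1 library left out, 35 splits remain, and the adjusted exact p of this ratio was 0.0762 to 0.114. In each of these sets every OxPAPC ratio was still above every vehicle ratio. With so few splits p is coarse, and its adjustment also draws on the other ratios, so it cannot show dependence on a single library.

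The Eif4a2 window, chr11:91275274-91275573, minus strand, is shown as that of the member that fell most. It held none of the motifs searched.
Eif4a2: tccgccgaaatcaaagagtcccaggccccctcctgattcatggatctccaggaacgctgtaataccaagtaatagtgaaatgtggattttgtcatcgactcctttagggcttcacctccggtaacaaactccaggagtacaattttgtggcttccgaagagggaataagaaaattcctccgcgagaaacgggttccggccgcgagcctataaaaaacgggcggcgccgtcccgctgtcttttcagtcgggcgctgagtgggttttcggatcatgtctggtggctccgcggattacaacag

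The remaining helicase-related genes differed among themselves. Eif4b, a cofactor that stimulates eIF4A, rose (log2 fold change 0.19 ± 0.03, edgeR adjusted p = 4e-05), with 319 ± 12.2 CPM in OxPAPC cells and 279 ± 3.46 CPM in vehicle cells (SD, n = 4 each). Eif4h, the other such cofactor, did not pass, at 0.03. Eif4a3, the helicase of the exon junction complex, was lower in all OxPAPC libraries, yet the value of -0.08 did not pass (edgeR adjusted p = 0.163), and it passed as a fall in 4 of 19 alternatives, including upper-quartile scaling.

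Among the cap-binding protein, its relatives and partners, 2 of 10 tested genes rose, none fell and 8 did not pass. The rising share was 20%, near the 17.9% of all tested genes and below the 31.7% of those from 56.5 to 199.5 CPM. Several of the 10 lie outside that band, among them Eif4g1 and Eif4g2 above it and Eif4ebp3 and Eif4e3 below it. Eif4e, the cap-binding protein, had 77.5, 78.3, 71.5 and 75.2 CPM in the OxPAPC libraries, against 69.9, 69.4, 65.4 and 66.5 CPM in the vehicle libraries. The groups lay close together without overlapping (log2 fold change 0.16 ± 0.04, edgeR adjusted p = 0.00625). Eif4e2, a relative that represses translation of selected messages, had 101, 91.4, 95.6 and 98.7 CPM in the OxPAPC libraries, against 94.7, 93.5, 89.2 and 90.9 CPM in the vehicle libraries. These overlapped, OxPAPC 9 being among the lower values, and the value of 0.07 did not pass (edgeR adjusted p = 0.196). The ratio of Eif4e2 to Eif4e was lower in every OxPAPC library, with a log2 mean of 0.35 ± 0.09 in OxPAPC cells and 0.44 ± 0.01 in vehicle cells (SD, n = 4 each; difference -0.09, exact permutation p = 0.0286, adjusted 0.0381). OxPAPC 9 carried much of it, and the difference without that library was -0.045.

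The binding proteins that mTORC1 controls did not pass the test. Eif4ebp1 had 83.0, 81.2, 84.8 and 83.6 CPM in the OxPAPC libraries, against 82.2, 78.4, 78.4 and 72.0 CPM in the vehicle libraries. The groups overlapped only through vehicle 1, and the fit gave 0.10 ± 0.04 (edgeR adjusted p = 0.0851). Without vehicle 1 it was past the test. The ratio of Eif4ebp1 to Eif4e had a log2 mean of 0.14 ± 0.08 in OxPAPC cells and 0.20 ± 0.07 in vehicle cells (SD, n = 4 each; difference -0.06, exact permutation p = 0.286), less than the spread between libraries. Eif4ebp2 was higher in all OxPAPC libraries but not past the test (0.06, edgeR adjusted p = 0.157). Eif4ebp3, with 6.15 FPKM in OxPAPC cells and 5.67 FPKM in vehicle cells, had 0.13 (edgeR adjusted p = 0.538). Eif4enif1, which shuttles eIF4E into the nucleus, had 0.18 ± 0.08 (edgeR adjusted p = 0.11). Vehicle 22, at 60.05 CPM, was above all OxPAPC libraries, which had 52.4 to 58.4 CPM, while the other vehicle libraries had 45.3 to 48.3 CPM. Without vehicle 22 the log2 fold change of Eif4enif1 was 0.27 (edgeR adjusted p = 0.000699), and it also passed with no low-count filter. Eif4e3, the scarcest expressed member by FPKM, had -0.08 ± 0.25.

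The scaffold genes differed slightly. Eif4g1, the main eIF4G scaffold, had 671, 642, 654 and 651 CPM in the OxPAPC libraries, against 652, 645, 631 and 649 CPM in the vehicle libraries, and the groups overlapped (log2 fold change 0.02, edgeR adjusted p = 0.536). Eif4g2, also called DAP5, lacks the eIF4E-binding region and serves initiation that does not need the cap. It lies on chromosome 1 from 165181433 to 165193583, minus strand. It had 1157, 1119.9, 1101 and 1129 CPM in the OxPAPC libraries, against 1047, 1083, 1044 and 1083 CPM in the vehicle libraries. The groups did not overlap (log2 fold change 0.08 ± 0.02, edgeR adjusted p = 0.0118), but the call was lost in 5 of 19 alternatives. The log2 ratio of Eif4g1 to Eif4g2 was -0.78 ± 0.02 in OxPAPC cells and -0.72 ± 0.03 in vehicle cells (SD, n = 4 each; difference -0.06, exact permutation p = 0.0286, adjusted 0.0381). Copies of Eif4g2 are counted apart: the pseudogene Eif4g2-ps1 had 16990 counts and LOC501116, annotated as similar to Eif4g2, had 9409, against 156937 for Eif4g2. Neither passed the test, at 0.05 and 0.02, and reads shared by these rows are uncertain. Eif4g3, the third scaffold, had -0.03.

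**Figure D3:**
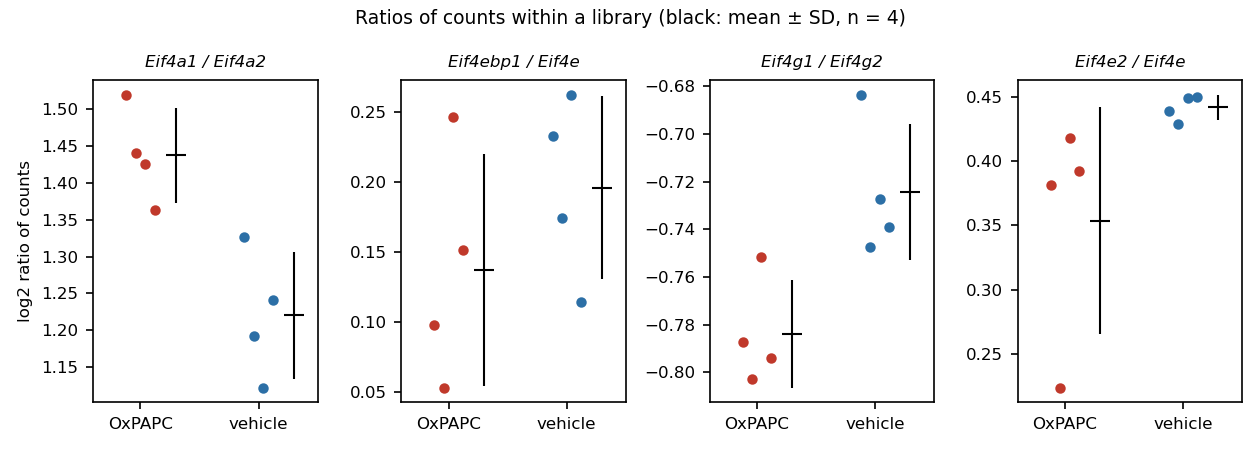
Log2 ratio of counts of a pair of initiation factor genes within each library, a panel a pair, with OxPAPC on the left and vehicle on the right; points are libraries and black marks the mean ± SD (n = 4). The vertical axes differ between panels. The groups separate for Eif4a1 over Eif4a2, Eif4g1 over Eif4g2 and Eif4e2 over Eif4e, where OxPAPC 9 lies far below the rest, and overlap for Eif4ebp1 over Eif4e.

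Among the members, the E-box CACGTG stood in the windows of 9 of 45 genes, 20%, against 7.08% of the 27457 genes with a window. Those 27457 genes were not limited to expressed or protein-coding genes, as nearly all members are, so the shares are not matched. The genes were Eif1b, Eif3a, Eif3b, Eif3f, Eif4e, Eif4g1, Eif4h, Eif5a and Eif5a2. It was in 3 of 16 members that rose, in 0 of 2 that fell and in 6 of 25 not past the test. In the Eif5a window it starts 206 bases before the gene start and overlaps a TGACNNNGC match that starts 213 bases before it. The Eif4e window, chr2:229740503-229740802, plus strand, is shown because it held the motif at a pair of places, starting 237 and 80 bases before the gene start and printed in capitals.
Eif4e: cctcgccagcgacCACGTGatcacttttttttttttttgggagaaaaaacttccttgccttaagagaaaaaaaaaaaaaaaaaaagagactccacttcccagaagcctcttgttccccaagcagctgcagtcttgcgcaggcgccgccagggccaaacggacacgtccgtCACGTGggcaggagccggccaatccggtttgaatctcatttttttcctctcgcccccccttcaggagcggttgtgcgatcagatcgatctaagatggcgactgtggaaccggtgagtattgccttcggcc

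**Figure D4:**
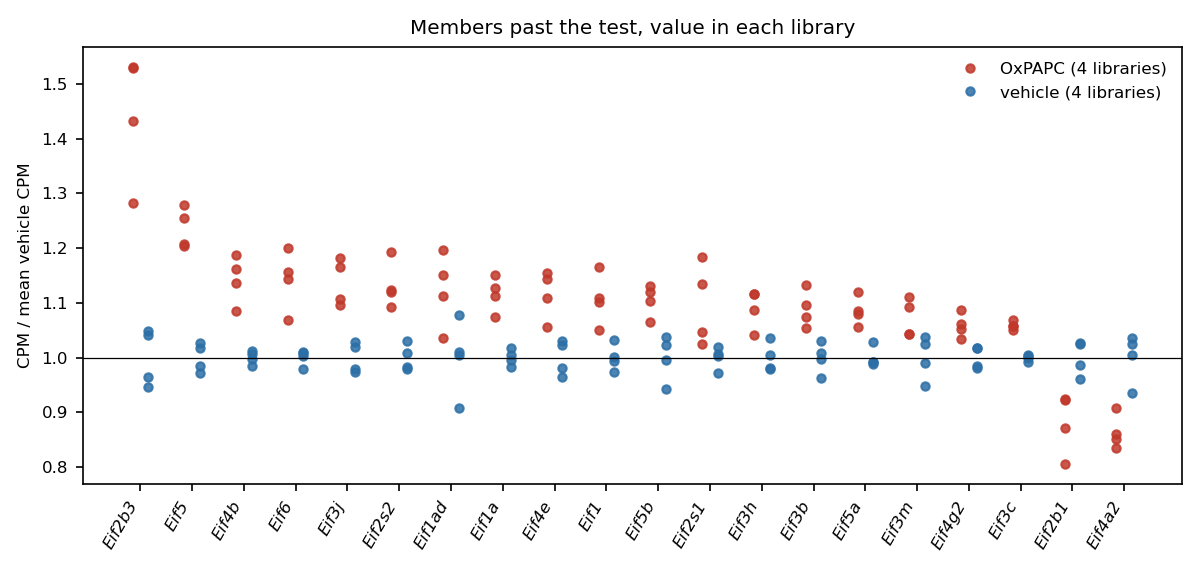
CPM in each library divided by the mean of the vehicle libraries, on a linear axis, for the 20 initiation factor genes past the test; red points are OxPAPC libraries and blue points vehicle libraries. Only Eif1ad has groups that overlap, and Eif2b3 spreads most among the OxPAPC libraries.

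Levels spanned a wide range when scaled by length. Eif5a was highest, with 285 ± 7.64 FPKM in OxPAPC cells and 268 ± 4.57 FPKM in vehicle cells (SD, n = 4 each). Eif4a1 followed with 256 ± 3.43 FPKM in OxPAPC cells and 259.8 ± 8.12 FPKM in vehicle cells, and Eif4g2 with 224 ± 3.99 FPKM in OxPAPC cells and 216 ± 4.32 FPKM in vehicle cells. These leading genes belong to different steps, elongation-linked, cap-dependent and cap-independent. At the low end were Eif4ebp3, Eif5a2 with 5.33 ± 0.307 FPKM in OxPAPC cells and 5.78 ± 0.202 FPKM in vehicle cells, and Eif4e3 with 0.632 ± 0.146 FPKM in OxPAPC cells and 0.688 ± 0.157 FPKM in vehicle cells. Some paralogues thus sat far apart, Eif5a above Eif5a2 and Eif4e above Eif4e3, in both groups. Others were close. Eif1a had 66.5 FPKM in OxPAPC cells and 60.7 FPKM in vehicle cells, and Eif1ax had 56.9 FPKM in OxPAPC cells and 58.2 FPKM in vehicle cells.

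**Figure D5:**
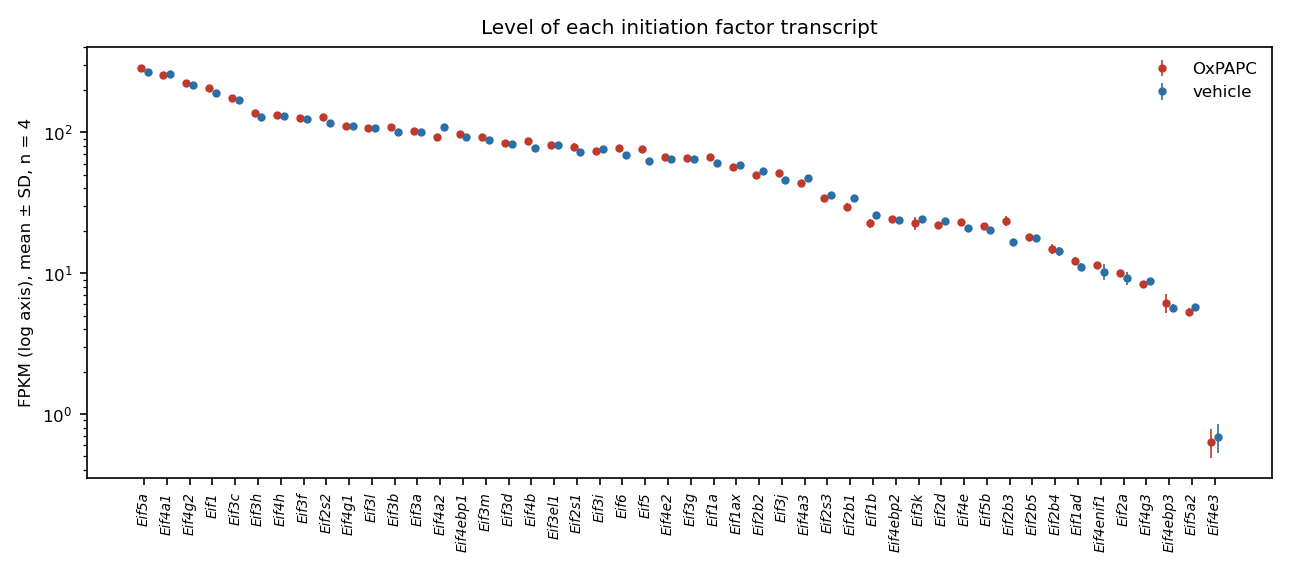
Mean FPKM ± SD (n = 4) of the 48 expressed initiation factor genes, ordered by level on a log axis, with the OxPAPC point left of the vehicle point for each gene. The order runs from Eif5a at 285 FPKM in OxPAPC cells and 268 FPKM in vehicle cells down to Eif4e3 at 0.632 FPKM in OxPAPC cells and 0.688 FPKM in vehicle cells, and most pairs of points nearly coincide.

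Genes that act on the initiation factors were described from lists by role. For scale, 34.3% of all tested genes passed, 17.9% rising and 16.4% falling. In the band from 56.5 to 199.5 CPM, 49.2% passed, 31.7% rising. Of the 4 eIF2 alpha kinases 0 rose, 1 fell and 3 did not pass (Eif2ak2, Eif2ak3 and Eif2ak4). The one that fell was Eif2ak1, the kinase known as HRI that responds to heme shortage and mitochondrial stress, with 104 ± 2.62 CPM in OxPAPC cells and 120.2 ± 1.99 CPM in vehicle cells (SD, n = 4 each; log2 fold change -0.21 ± 0.04, edgeR adjusted p = 7.52e-05). Of 8 genes for the phosphatase that reverses the mark and its regulators, 4 rose and 4 did not pass (Ppp1ca, Ppp1cb, Dnajc3 and Nck1). Ppp1r15a and Ppp1r15b encode the subunits that direct the phosphatase to eIF2 alpha, and rose by 0.61 ± 0.05 and 0.19 ± 0.04 (edgeR adjusted p = 4.02e-09 and 0.000291). Ppp1cc, a catalytic subunit of the phosphatase, rose by 0.12 ± 0.03 (edgeR adjusted p = 0.00311). Impact, which encodes an inhibitor of the kinase GCN2, had 50.9 ± 3.78 CPM in OxPAPC cells and 36.8 ± 3.99 CPM in vehicle cells (log2 fold change 0.46 ± 0.07, edgeR adjusted p = 8.24e-05).

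The mTORC1 group had 18 of 19 genes tested, of which 7 rose, 1 fell and 10 did not pass, with a median of 0.04. Of those tested 44.4% passed, 38.9% rising, against 34.3% and 17.9% of all tested genes. In the band from 56.5 to 199.5 CPM these shares were 49.2% and 31.7%, though several of the 18 lie below that band. Castor1, with 13 counts, was not tested. Ddit4, an inhibitor of mTORC1 induced by stress, had 20.5 ± 2.03 CPM in OxPAPC cells and 11.4 ± 1.13 CPM in vehicle cells (SD, n = 4 each; log2 fold change 0.85 ± 0.09, edgeR adjusted p = 1.16e-07). Sesn2, which restrains mTORC1 when leucine is short, rose by 0.29 ± 0.05 (edgeR adjusted p = 6.2e-05), and Akt1s1, an inhibitory partner of the complex, by 0.34 ± 0.04 (adjusted p = 2.25e-06). Deptor, also an inhibitory partner, fell (log2 fold change -0.46 ± 0.05, edgeR adjusted p = 4.51e-08). Rheb and Rragc also rose, by 0.17 ± 0.04 and 0.18 ± 0.04 (edgeR adjusted p = 0.00114 and 0.000463). So did Tsc1 and Tsc2, by 0.16 ± 0.05 and 0.27 ± 0.05 (edgeR adjusted p = 0.00757 and 0.0004). The kinase and scaffold genes Mtor, Rptor and Mlst8 and the kinases Rps6kb1, Rps6kb2, Rps6ka1, Rps6ka3, Mknk1 and Mknk2 did not pass, nor did Rragd.

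Of 22 other initiation and scanning genes, 7 rose, 2 fell and 13 did not pass, with a median of 0.07. In shares 40.9% passed, 31.8% rising, against 34.3% and 17.9% of all tested genes. From 56.5 to 199.5 CPM these shares were 49.2% and 31.7%. Larp1, which binds messages for the translation machinery, had 225 ± 7.13 CPM in OxPAPC cells and 182 ± 7.65 CPM in vehicle cells (SD, n = 4 each; log2 fold change 0.30 ± 0.04, edgeR adjusted p = 4.94e-07). Bzw2, a competitor of eIF5 that raises start codon stringency, rose by 0.27 ± 0.04 (edgeR adjusted p = 1.94e-05), and Ddx3x, a helicase for structured leaders, by 0.21 ± 0.03 (adjusted p = 3.11e-05). Ctif, a partner of the nuclear cap-binding complex, fell (log2 fold change -0.21 ± 0.04, edgeR adjusted p = 0.000537). A list of elongation factors also held Eef2k, Eef1e1 and the enzymes that modify eIF5A. Of its 10 tested genes 5 rose, Eef1e1 among them, 0 fell and 5 did not pass. The rising share was 50%, against 17.9% of all tested genes and 31.7% of those from 56.5 to 199.5 CPM. Eef1g and Eef2, among others, lie above that band. Dohh, which completes the hypusine of eIF5A, rose by 0.17 ± 0.04 (edgeR adjusted p = 0.00256), and Dhps, which starts it, did not pass. Eef2k, the kinase that inhibits the elongation factor eEF2, rose by 0.26 ± 0.05 (edgeR adjusted p = 0.000269). Eef2 itself, which encodes that factor, rose by 0.09 ± 0.02 (edgeR adjusted p = 0.00426), and Eef1g, a subunit of the exchange complex of eEF1A, by 0.10 ± 0.03 (adjusted p = 0.00574). Of 7 tested genes for termination and recycling 1 rose, 14.3%, against 17.9% of all tested genes. It was Etf1, the release factor (0.12 ± 0.04, edgeR adjusted p = 0.0132). Of 9 mitochondrial factors 1 rose, 11.1%, against the same 17.9%. That gene was Mrrf, for ribosome recycling (0.21 ± 0.06, edgeR adjusted p = 0.00588). The mitochondrial initiation factors Mtif2 and Mtif3 were among the 8 not past the test.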

How the data were processed

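Counts of reads by gene, raw whole numbers, were deposited for 8 libraries along with FPKM values. The tools listed, per the submitters' processing notes and with no order, are featureCounts 1.5.0-p3, StringTie 1.3.3b and HISAT2 2.0.5. No genome build is named in the files or labels. The deposited FPKM values equalled counts scaled by gene length and library total, times 1 factor per library between 0.987 and 1.02. Each file had 1 line emptied for this work. Per the labels' protocols the library was directional and non-directional at once, so use of strand in counting is unknown.

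The members and all gene lists were chosen with earlier results of these data known. Genes were filtered with filterByExpr (10 counts in at least 4 libraries, 15 in all), scaled by TMM (0.976 to 1.03) and fitted with edgeR 4.0.16 in R 4.3.3 by robust quasi-likelihood, over all 8 libraries with group alone. Benjamini-Hochberg adjustment ran over 13206 genes, with 0.05 as the threshold, and the standard error is the log2 fold change over the root of F. The fit gave 5.79% as biological coefficient of variation. CPM values use the scaled library sizes, and the FPKM values are as deposited. Ratios of counts were tested by exact permutation. Values in every library are given for members past the test with a log2 fold change of at least 0.3 in size, the 3 with the highest FPKM, and the genes of the ratios, and Eif2b1 was added after its values were seen. From each role list up to 4 genes past the test with the smallest p are named. The other genes that rose in the mTORC1 list, and Eef1e1 in the elongation list, were added after their values were seen. Alternatives used limma 3.58.1 and DESeq2 1.42.0, and the script was tested on simulated data. Promoters were matched by gene identifier for 45 of 51 members, and a gene with more than 1 window held a motif if any window did. Counting floors cover counting error only. Between libraries, chi-square over its degrees of freedom ran from 2.23 to 9.50 within groups and from 23.1 to 35.0 across, so no library repeated another.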

Additional observations from a re-analysis of the deposited data

Results flagged for a closer look

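In 5 of 104 groups of 4 libraries examined, a single library stood farther from its group than Dixon's criterion allows, and chance alone flags about 1 in 20. Eif3g had 67.2 CPM in OxPAPC 9, against 70.2 to 70.7 CPM in the other OxPAPC libraries. Eif4enif1 had 52.4 CPM in OxPAPC 9, against 57.8 to 58.4 CPM in the others of that group. In vehicle 15, Eif3l had 140 CPM, against 153.6 to 154.2 CPM in the other vehicle libraries, and Eif4a3 had 72 CPM, against 68.5 to 69.1 CPM. Eif5a had 458 CPM in vehicle 1, against 440.0 to 441.8 CPM in the other vehicle libraries. Eif5a kept its call without vehicle 1.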

How the results depend on the processing

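Over 19 alternatives, none reversed the direction of a called member, and 15 to 20 of the 48 passed. In all 19, Eif5, Eif2b3, Eif4b, Eif4a2, Eif2s2, Eif1a, Eif6, Eif3j, Eif1, Eif5a, Eif4e and Eif2b1 kept their calls. Falls numbered 5 with upper-quartile factors, 5 with limma on log2(FPKM + 1), 5 with log2(FPKM + 0.1) and 4 with log2(FPKM + 1) and no filter, against 2. With the last setting 11 members rose, against 18, and 1532 of all genes rose, against 2369. The cause was not tested. Leaving out each library in turn, 17 to 20 members passed (15 to 18 rising, 2 to 3 falling), and 3919 to 4397 of all genes (2060 to 2336 rising, 1853 to 2082 falling). The differences in log2 ratio then ran from 0.18 to 0.25 for Eif4a1 to Eif4a2, -0.095 to -0.031 for Eif4ebp1 to Eif4e, -0.070 to -0.046 for Eif4g1 to Eif4g2 and -0.11 to -0.045 for Eif4e2 to Eif4e. Adjusted p of all but Eif4ebp1 to Eif4e was then 0.0571 to 0.114. Upper-quartile factors moved the median of all genes to -0.035, against 0.0022. No paired analysis was possible because the titles give the groups no number in common and no label says which libraries belong together.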
